A study of Homo sapiens with 6 samples.

Results

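The genes described were 42 that encode lysosomal enzymes, membrane proteins and their regulators, taken by name from the deposited count table of 54261 gene rows. They comprise 8 cathepsins, 2 other proteases, 10 glycosidases, 4 sulfatases, 6 genes for lipid enzymes, cofactors and transfer proteins (with progranulin), 6 membrane proteins, 4 V-ATPase genes and 2 transcription factors. The lysosome is the acidic compartment in which cells break down proteins, sugars, lipids and nucleic acids. Its soluble hydrolases are glycoproteins that are carried from the Golgi by mannose 6-phosphate receptors, its limiting membrane is lined by heavily glycosylated proteins such as LAMP1 and LAMP2, and its lumen is acidified by the V-ATPase, a rotary proton pump. TFEB and TFE3, transcription factors held in the cytosol by mTORC1 when nutrients are plentiful, bind an E-box motif in the promoters of many of these genes.

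RNA was sequenced from A549, an established human lung adenocarcinoma line of epithelial type, in 2 groups of 3 libraries. The si-SNHG17 libraries came from cells given siRNA that targets SNHG17, a long noncoding RNA, and the si-NC libraries from cells given control siRNA; the series title places SNHG17 in the proliferation and migration of lung cancer cells. Only this line was used, with siRNA sequences, the number of siRNAs and the time after transfection not given in the sources used here. Levels are in CPM, the read count of a gene scaled to a common library size after TMM scaling. A gene is said to have risen or fallen where edgeR's quasi-likelihood test over all genes gave a Benjamini-Hochberg adjusted p under 0.05. Log2 fold changes are si-SNHG17 over si-NC.

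The libraries held 8643076 to 12477214 counts. SNHG17 was at 7.82, 8.39 and 11.3 CPM in si-SNHG17 and at 38.7, 36.2 and 51.4 CPM in si-NC, a log2 fold change of -2.21 (standard error 0.167, adjusted p = 2.84e-07). The 6 epithelial markers KRT8, KRT18, KRT19, EPCAM, CDH1 and CLDN4 summed to 4998 to 5011 CPM in si-SNHG17 and 8429 to 9441 CPM in si-NC. Of these, 1 rose and 4 fell (16.7% and 66.7%, against 19.6% each way over all genes tested). EPCAM, low throughout, did not pass, with 28 counts in si-SNHG17 against 45 in si-NC. The part of the lower epithelial marker sum in the results below was not tested. Within si-NC, replicate 3 stood apart, with a chi-square of counts per degree of freedom of 8.85 and 8.40 to replicates 1 and 2, against 2.25 between those libraries. The same measure was 3.04 to 4.87 within si-SNHG17 and 38.4 to 55.3 between the groups. In bulk RNA, fewer cells of a kind and less RNA per cell cannot be told apart.

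Most of the 42 lysosomal genes were slightly higher in si-SNHG17, while a few fell steeply. All 42 passed the filter on low counts, with 42 to 40114 counts per library. Of these, 23 rose, 6 fell and 13 did not pass, where 39.1% of all 15614 genes tested passed, 19.6% upward and 19.6% downward. Thus 54.8% of the 42 genes rose and 14.3% fell. At least a 2-fold change was called for 3 of the 42, CD68 upward and CTSD and ARSB downward, where 9.38% of all genes tested passed this rule. Among 9433 messenger RNAs at least as abundant as the least abundant of the 42, 24.9% rose and 23.0% fell. The median log2 fold change was 0.28 over the 42 genes and 0.01 over all genes tested. The groups did not overlap for 25 genes that were higher in si-SNHG17 and 6 that were lower (59.5% and 14.3%, against 25.1% and 24.3% of all genes tested). Together the 42 genes took 1.21%, 1.21% and 1.20% of the counts in si-SNHG17, and 0.978%, 0.948% and 1.04% in si-NC. All 3 si-SNHG17 libraries lay above the si-NC libraries in this share, also without PSAP, the largest contributor (0.877% to 0.886% in si-SNHG17, 0.712% to 0.794% in si-NC).

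Medians by class differed between libraries and classes. The median log2 difference from the si-NC mean over the 42 genes was 0.26, 0.27 and 0.25 in si-SNHG17, against -0.04, -0.04 and 0.09 in si-NC. For the glycosidases it was 0.33, 0.36 and 0.19 in si-SNHG17, against -0.08, -0.04 and 0.13 in si-NC. For the membrane proteins it was 0.25, 0.26 and 0.30 in si-SNHG17, against -0.03, -0.05 and 0.11 in si-NC. Both classes lay above si-NC in every si-SNHG17 library, with si-NC replicate 3 the nearest. So did every other class except the V-ATPase. The margin was narrow for the cathepsins (0.157 in si-SNHG17 replicate 2, 0.113 in si-NC replicate 3). It was narrower for the transcription factors (0.114 in si-SNHG17 replicate 3, 0.106 in si-NC replicate 3). The V-ATPase overlapped, at -0.03, -0.05 and 0.02 in si-SNHG17 against 0.00, -0.02 and 0.05 in si-NC. Differences between the classes were not tested.

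**Figure D1:**
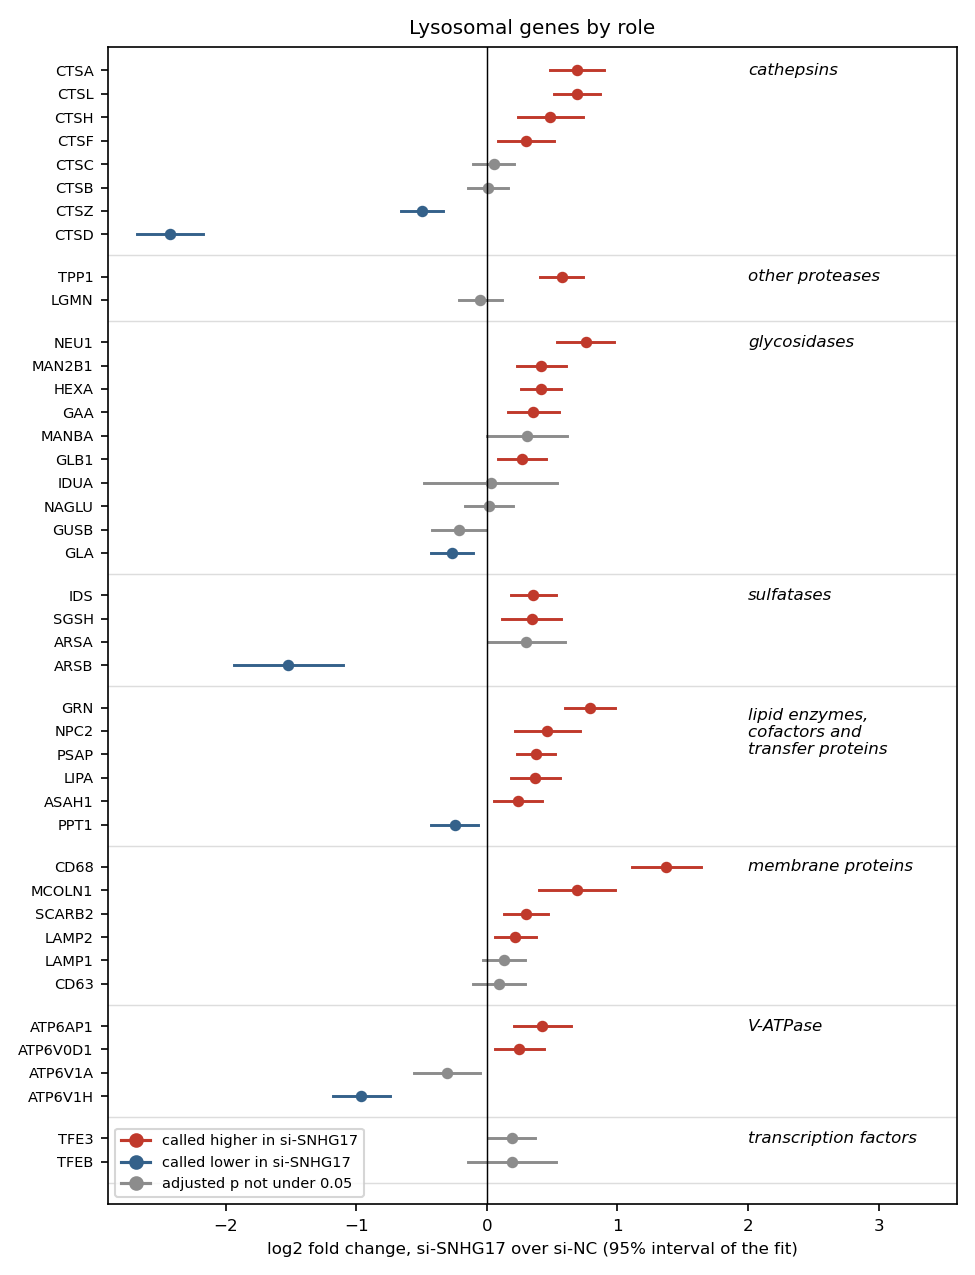
Log2 fold change (x axis, si-SNHG17 over si-NC) with its 95% interval for each of the 42 lysosomal genes (y axis), grouped by role. Red marks the 23 genes that rose, blue the 6 that fell and grey the 13 that did not pass; CTSD at -2.43 and CD68 at 1.37 are the ends of the range.

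The cathepsins, the proteases for which the compartment is best known, split by member. CTSA, CTSL, CTSH and CTSF rose, CTSD and CTSZ fell, and CTSB and CTSC did not pass. Thus 50% rose and 25% fell, against 19.6% each way over all genes tested. The median log2 fold change of the 8 was 0.18. Their summed level overlapped between groups, at 3484 to 3574 CPM in si-SNHG17 and 3284 to 3926 CPM in si-NC.

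CTSD encodes cathepsin D, the main aspartic protease of the lysosome (chromosome 11, 1752755 to 1763927, RefSeq GRCh38.p14). It was at 142, 131 and 130.0 CPM in si-SNHG17 and at 676, 612 and 875 CPM in si-NC. Every si-SNHG17 library was far below every si-NC library, and si-NC replicate 3 was the highest. The means were 134 ± 6.60 CPM and 721 ± 137 CPM (SD, n = 3 each), which left 18.6% of the si-NC level. On the log2 scale CTSD fell by 2.43 (standard error 0.116, edgeR adjusted p = 5.18e-09), and over 14 alternative fits the change ran from -2.53 to -2.26. CTSD shares 1304 exon bases with AC068580.4, a same-strand gene in GENCODE 29. Cathepsin D is one of the best expressed of the 42 genes in si-NC. Per kilobase of merged exons it was at 231 CPM, the third of the 42 in order, while in si-SNHG17 it was at 42.9 CPM, rank 13. Its promoter is shown because this fall was the largest among the lysosomal genes. The 300 bases from 250 before to 50 after the RefSeq start (minus strand of chr11:1763878-1764177, GRCh38.p14) hold one CACGTG, the E-box core, in capitals.
CTSD promoter: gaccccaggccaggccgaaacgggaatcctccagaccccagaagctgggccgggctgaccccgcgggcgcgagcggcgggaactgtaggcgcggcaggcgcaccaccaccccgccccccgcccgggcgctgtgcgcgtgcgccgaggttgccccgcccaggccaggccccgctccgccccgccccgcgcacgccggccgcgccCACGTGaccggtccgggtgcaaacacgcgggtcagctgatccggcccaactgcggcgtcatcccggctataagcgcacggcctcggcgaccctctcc

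CTSL encodes cathepsin L, a cysteine endopeptidase. It was at 1180.0, 1166 and 1195 CPM in si-SNHG17 and at 749, 647 and 801 CPM in si-NC, so the groups lay apart. The rise was 1.61-fold (log2 fold change 0.69, standard error 0.0827, edgeR adjusted p = 1.87e-05). CTSA is the serine carboxypeptidase that also shields beta-galactosidase and NEU1 in a complex. It was at 336, 357 and 305 CPM in si-SNHG17, against 187, 193 and 237 CPM in si-NC, again without overlap (log2 fold change 0.69, standard error 0.0969, edgeR adjusted p = 7.20e-05).

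CTSB, a cysteine protease and the second most abundant of the 42 genes by mean CPM, did not follow. It was at 1416, 1353 and 1358 CPM in si-SNHG17 and at 1341, 1303 and 1454 CPM in si-NC, so the groups overlapped. Its log2 fold change of 0.01 had a 95% interval from -0.14 to 0.16, and CTSC, the aminopeptidase dipeptidyl peptidase I, had 0.05 with an interval from -0.10 to 0.21. The cathepsin makeup of a library therefore differed between groups. For each CTSB read there were 0.1001, 0.0967 and 0.0957 CTSD reads in si-SNHG17, against 0.504, 0.470 and 0.602 in si-NC. For CTSL the ratio to CTSB was 0.833, 0.862 and 0.880 in si-SNHG17, against 0.559, 0.497 and 0.551 in si-NC.

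The carboxypeptidase gene CTSZ fell by 0.50 on the log2 scale, with 165 ± 4.88 CPM in si-SNHG17 and 233 ± 13.5 CPM in si-NC (SD, n = 3 each; edgeR adjusted p = 0.000159). CTSH, an aminopeptidase, rose by 0.49, with 43.9, 57.8 and 51.3 CPM in si-SNHG17 and 36.9, 33.7 and 38.8 CPM in si-NC. CTSF rose by 0.30 (edgeR adjusted p = 0.0288), a call lost without si-SNHG17 replicate 1, 2 or 3 or si-NC replicate 1 or 2. Of the other proteases, TPP1, the tripeptidyl peptidase lacking in a childhood ceroid lipofuscinosis, rose to 143 ± 2.80 CPM in si-SNHG17, against 96.0 ± 2.71 CPM in si-NC (log2 fold change 0.57, edgeR adjusted p = 4.38e-05). LGMN, the asparaginyl endopeptidase legumain that processes several cathepsins, had a log2 fold change of -0.05 with a 95% interval from -0.22 to 0.12.

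**Figure D2:**
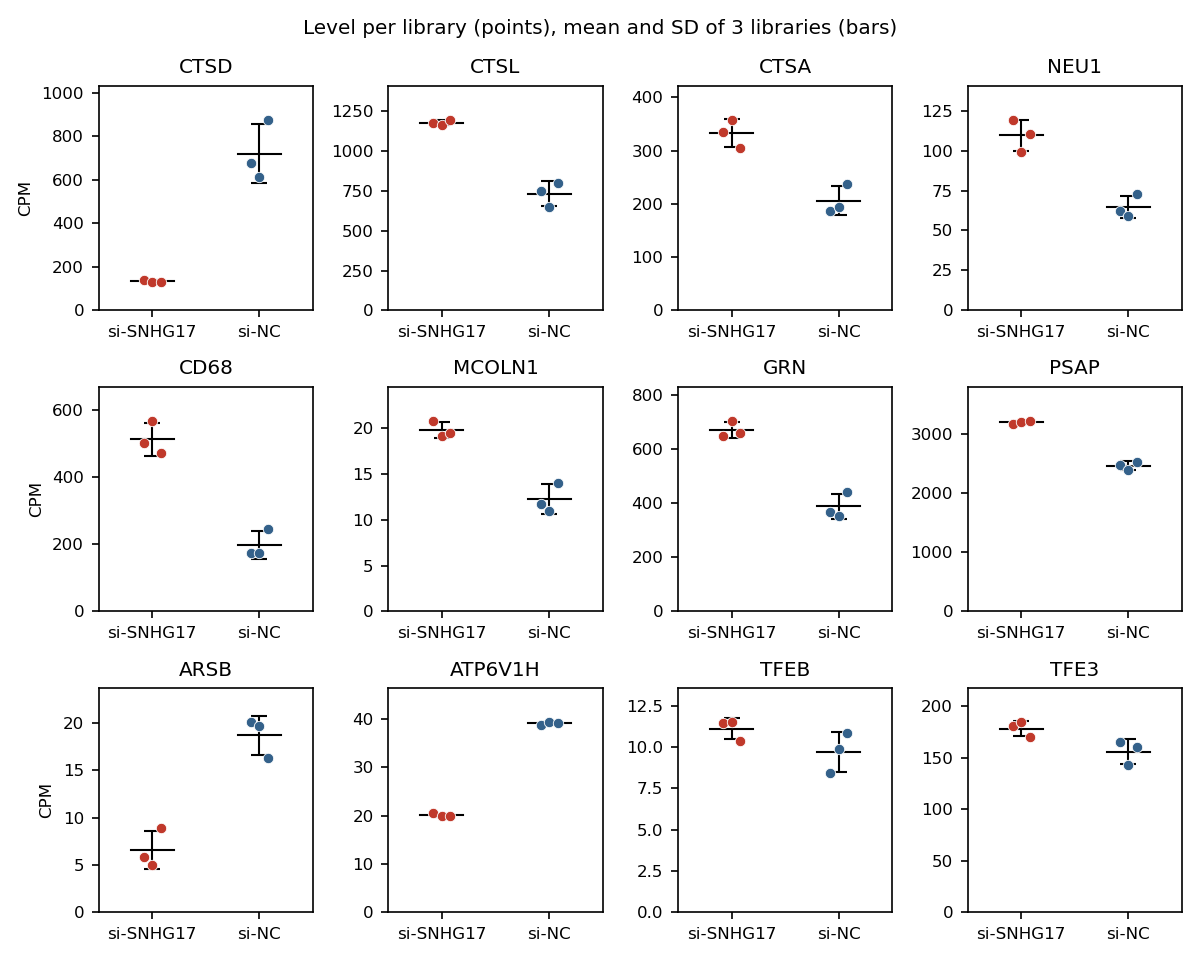
CPM (y axis, from 0) of 12 lysosomal genes in each library, with the mean and SD of 3 libraries as bars, si-SNHG17 on the left of each panel and si-NC on the right. The groups lie apart in every panel except TFEB; CTSD falls to 134 CPM against 721 CPM, and CD68 rises to 512 CPM against 197 CPM.

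Of the 10 glycosidases, which strip sugars from glycoproteins, glycolipids and glycosaminoglycans, 5 rose and 1 fell, against 19.6% each way over all genes tested. Their median log2 fold change was 0.29. NEU1, the sialidase that works in a complex with CTSA, changed most. It was at 119, 99.3 and 110.2 CPM in si-SNHG17 and at 62.0, 59.4 and 72.7 CPM in si-NC, with no overlap (log2 fold change 0.76, standard error 0.101, edgeR adjusted p = 4.65e-05). MAN2B1, the acid alpha-mannosidase, and HEXA, the alpha subunit of beta-hexosaminidase lacking in Tay-Sachs disease, rose by 0.42 and 0.41. GAA, the acid alpha-glucosidase lacking in Pompe disease, rose by 0.36, to 277 ± 15.05 CPM in si-SNHG17 against 217 ± 25.7 CPM in si-NC (SD, n = 3 each). GLB1, the beta-galactosidase whose activity marks senescent cells, rose by 0.27 (edgeR adjusted p = 0.0209), a call lost without si-SNHG17 replicate 1 or 3 or si-NC replicate 1.

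GLA, the alpha-galactosidase lacking in Fabry disease, was the glycosidase that fell. It was at 105 ± 0.632 CPM in si-SNHG17 and 127 ± 2.01 CPM in si-NC (SD, n = 3 each), a log2 fold change of -0.27 (edgeR adjusted p = 0.011). MANBA, GUSB, IDUA and NAGLU did not pass, with log2 fold changes of 0.31, -0.21, 0.03 and 0.01. MANBA, the beta-mannosidase, passed without si-NC replicate 3, at 0.44 (edgeR adjusted p = 0.0192). IDUA, the alpha-iduronidase, had the lowest mean CPM of the 42 genes over all libraries, though in si-SNHG17 the mean of ARSB was lower. IDUA was at 6.27 to 8.55 CPM in si-SNHG17 and 4.78 to 9.55 CPM in si-NC, and its 95% interval ran from -0.48 to 0.54. Changes within that interval are therefore not excluded, at these low counts and this spread between libraries. For GUSB, the beta-glucuronidase, 12 pseudogene rows held 168 counts in si-SNHG17 against 185 in si-NC beside 2509 and 2818 for the gene itself, and how shared reads were assigned is not given.

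The sulfatases also held genes that moved opposite ways. IDS, the iduronate sulfatase lacking in Hunter syndrome, was at 397 ± 16.4 CPM in si-SNHG17 and 311 ± 26.2 CPM in si-NC (SD, n = 3 each). It rose by 0.35, and SGSH, the heparan N-sulfatase, by 0.34. The SGSH call (edgeR adjusted p = 0.0187) was lost without si-SNHG17 replicate 1 or 2 or si-NC replicate 1. ARSA, the cerebroside sulfatase, did not pass at 0.30, but passed without si-NC replicate 3, at 0.48 (edgeR adjusted p = 0.00314). ARSB, which removes sulfate from dermatan and chondroitin sulfate, was at 5.84, 5.03 and 8.89 CPM in si-SNHG17 and at 20.0, 19.6 and 16.3 CPM in si-NC. Its groups lay apart, and the mean in si-SNHG17 was 35.3% of that in si-NC. ARSB fell by 1.52 on the log2 scale (standard error 0.194, edgeR adjusted p = 3.21e-05). After CTSD this was the second largest fall of the 42 genes, from counts of 56 to 78 per library in si-SNHG17 and 174 to 199 in si-NC.

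All 6 genes for lipid enzymes, cofactors and transfer proteins passed, 5 upward and 1 downward, where 39.1% of all genes tested passed. Their median log2 fold change was 0.37. PSAP encodes prosaposin, the precursor of the saposins that present lipids to hydrolases. With the highest CPM of the 42 genes, it was at 3174, 3205 and 3219.5 CPM in si-SNHG17 and at 2474, 2387 and 2537 CPM in si-NC. Each group was tight and they did not overlap (log2 fold change 0.38, standard error 0.0675, edgeR adjusted p = 0.000575). PSAP also led per kilobase of merged exons, with 988 CPM in si-SNHG17 and 761 CPM in si-NC.

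GRN encodes progranulin, a secreted and lysosomal glycoprotein that travels with prosaposin and is cut into granulins by cathepsins. It was at 649, 704 and 662 CPM in si-SNHG17 and at 370, 354 and 443 CPM in si-NC. The groups lay apart, and the log2 fold change of 0.79 (standard error 0.0888, edgeR adjusted p = 1.05e-05) was second to CD68 among the rises. NPC2, the cholesterol transfer protein, rose by 0.46, LIPA, the acid lipase that frees cholesterol from esters, by 0.37 and ASAH1, the acid ceramidase, by 0.24. NPC2 was at 45.3 ± 5.88 CPM in si-SNHG17 and 32.8 ± 2.37 CPM in si-NC, and LIPA at 228 ± 15.9 CPM in si-SNHG17 and 176 ± 16.1 CPM in si-NC (SD, n = 3 each). NPC2 shares exon bases with ISCA2 on the opposite strand, which held 907 counts in si-SNHG17 against 932 in si-NC, and with MIR4709 on the same strand, with 227 against 195, beside 1378 and 973 for NPC2, so its value is uncertain too. PPT1, the palmitoyl thioesterase, fell by 0.25 (edgeR adjusted p = 0.03). The ASAH1 call was lost without si-SNHG17 replicate 1 or 3 or si-NC replicate 1 or 2, and the PPT1 call without any one library except si-NC replicate 3. ASAH1 was also lost with the replicate block, and PPT1 with DESeq2, library totals only, no low-count filter or the replicate block, so PPT1 held in 5 of 14 alternatives. PPT1 shares 1189 exon bases with CAP1 on the opposite strand, which held 10015 counts in si-SNHG17 against 8992 in si-NC against 2015 and 2287 for PPT1, so without stated strand use its value is uncertain.

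None of the 6 membrane proteins fell, and 4 rose, against 19.6% each way over all genes tested, with a median log2 fold change of 0.26. CD68, a LAMP family protein of late endosomes and lysosomes that is most abundant in macrophages, had the largest rise of the 42 genes. It was at 501, 565 and 470 CPM in si-SNHG17 and at 175, 172 and 245 CPM in si-NC. The groups lay far apart (log2 fold change 1.37, standard error 0.123, edgeR adjusted p = 1.33e-06), a 2.59-fold difference. Of 16 leukocyte markers, 6 had no read in any library, PTPRC, CD163, TYROBP and MARCO among them. The 16 summed to 29.5 to 33.0 CPM in si-SNHG17 and 38.6 to 53.2 CPM in si-NC, with CD14 lower by a log2 fold change of -0.88 and ITGAM higher by 0.50, a call that held in 10 of 14 alternatives. Of 11 fibroblast and endothelial markers, summed at 68.0 to 79.7 CPM in si-SNHG17 and 75.5 to 91.6 CPM in si-NC, THY1 alone of 3 tested fell, a call that held in 12 of 14 alternatives. CD68 shares 1789 exon bases with AC016876.2, a same-strand gene in GENCODE 29.

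MCOLN1, the lysosomal calcium channel TRPML1, was at 20.8, 19.2 and 19.5 CPM in si-SNHG17 and at 11.7, 10.9 and 14.0 CPM in si-NC. Its groups did not overlap either (log2 fold change 0.69, standard error 0.137, edgeR adjusted p = 0.00121). SCARB2, the receptor that brings glucocerebrosidase to the lysosome, rose by 0.30 and LAMP2 by 0.22. The LAMP2 call (edgeR adjusted p = 0.0306) was lost without any one library except si-NC replicate 3, and with no low-count filter or the replicate block. LAMP1, at 190.0 ± 11.6 CPM in si-SNHG17 and 173 ± 3.42 CPM in si-NC, and the tetraspanin gene CD63, at 376 ± 29.3 and 352 ± 43.1 CPM (SD, n = 3 each), did not pass. Their 95% intervals ran from -0.03 to 0.30 and from -0.11 to 0.30. CD63 passed without si-NC replicate 3, at 0.20 (edgeR adjusted p = 0.0337).

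**Figure D3:**
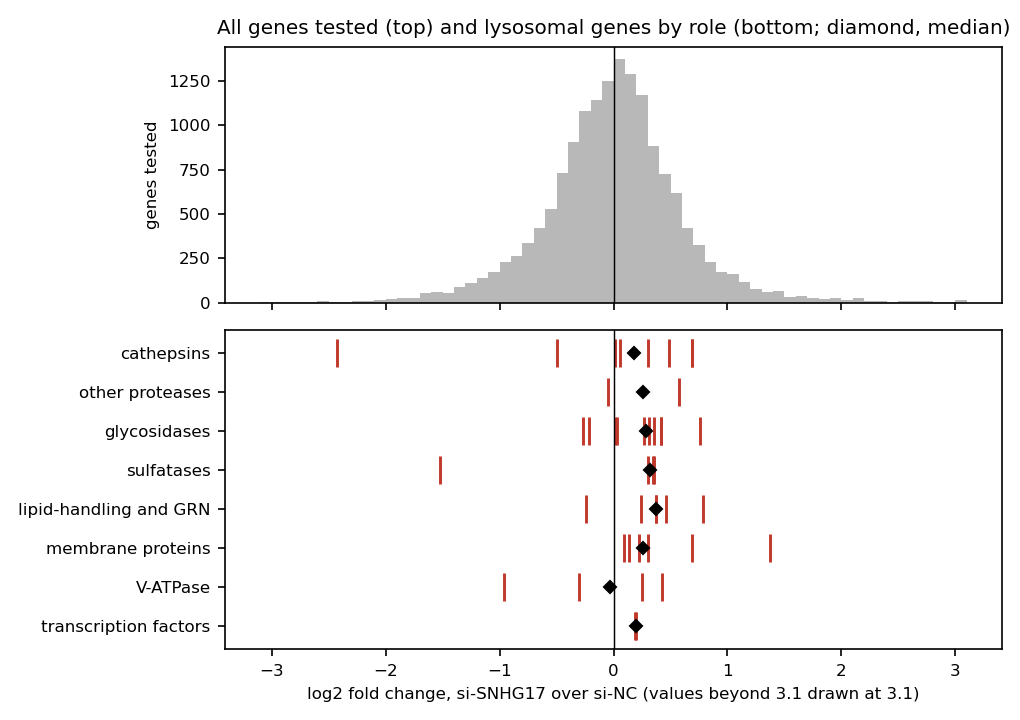
Number of genes (upper y axis) by log2 fold change, si-SNHG17 over si-NC, for all 15614 genes tested, above the same x axis with a red tick for each lysosomal gene by role and a black diamond at each role's median. Medians lie between 0.18 and 0.37 except for the V-ATPase at -0.03, and single ticks for CTSD, ARSB and ATP6V1H stand apart on the left.

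Of the 4 V-ATPase genes, 2 rose and 1 fell, against 19.6% each way over all genes tested, and the median log2 fold change was -0.03. ATP6V1H, the H subunit of the cytosolic V1 sector, was at 20.4, 19.8 and 19.9 CPM in si-SNHG17 and at 38.7, 39.3 and 39.1 CPM in si-NC. Both groups were tight and lay apart, with 51.4% of the si-NC level left (log2 fold change -0.96, standard error 0.101, edgeR adjusted p = 5.76e-06). ATP6V1A, the catalytic A subunit of V1, had a log2 fold change of -0.31 and did not pass (edgeR adjusted p = 0.0553), but passed without si-NC replicate 3, at -0.44 with adjusted p = 0.00063, and with no low-count filter. The accessory gene ATP6AP1, at 255.5, 268 and 231 CPM in si-SNHG17 and 164, 179.7 and 219 CPM in si-NC, rose by 0.42, and ATP6V0D1, a subunit of the membrane V0 sector, rose by 0.25. The ATP6V0D1 call (edgeR adjusted p = 0.038) was lost without any one library except si-NC replicate 3, and with DESeq2, no low-count filter or the replicate block, so it held in 6 of 14 alternatives.

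Of 16 further V-ATPase genes tested, 3 rose and 4 fell, with a median log2 fold change of -0.02. These shares of 18.8% and 25.0% are near the 19.6% each way over all genes tested. ATP6V1E1, the E subunit that forms the stalks of V1, was at 22.6, 22.8 and 25.3 CPM in si-SNHG17 and at 126, 116 and 133 CPM in si-NC. It fell by 2.41 on the log2 scale (standard error 0.0967, edgeR adjusted p = 9.48e-10), beside a log2 fold change of -2.43 for CTSD. Its 3 pseudogene rows held 49 counts in si-SNHG17 against 253 in si-NC. ATP6V1G1, another V1 stalk subunit, fell by 0.43, ATP6V0E1 rose by 0.53 and ATP6V0E2 fell by 0.61. Sectors were grouped after the values were seen. The V1 genes gave 3 falls and no rise among 10 tested, with a median of -0.35. The V0 genes gave 4 rises and 2 falls among 8 tested, with a median of 0.22. Over all genes tested 19.6% went each way, and with so few genes a difference between sectors was not tested.

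**Figure D4:**
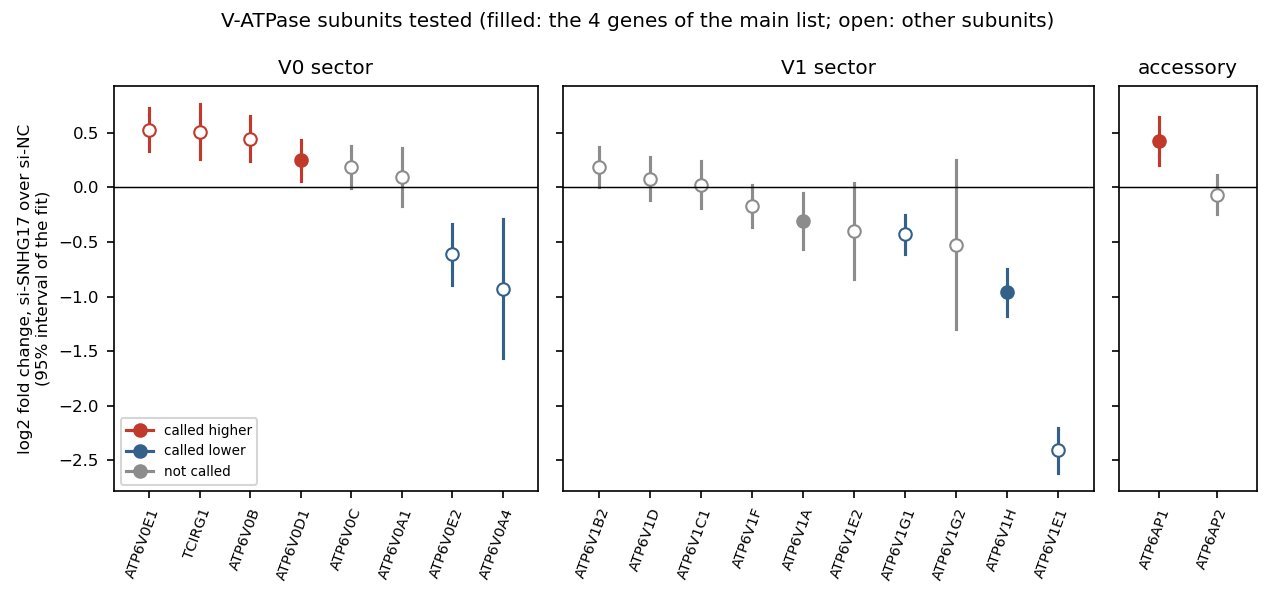
Log2 fold change (y axis, si-SNHG17 over si-NC) with its 95% interval for the 20 V-ATPase genes tested, by sector, with filled points for the 4 genes of the main list and open points for the other 16. No V1 gene is red among 10 tested, where 19.6% of all genes tested rose. ATP6V1E1 at -2.41 and ATP6V1H at -0.96 are the lowest, and the sectors were grouped after the values were seen.

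TFEB and TFE3, which drive lysosomal genes when they enter the nucleus, did not pass. TFEB was at 11.5, 11.5 and 10.4 CPM in si-SNHG17 and at 8.42, 9.86 and 10.9 CPM in si-NC, with overlap (log2 fold change 0.19, 95% interval -0.14 to 0.53). TFE3 was at 181, 184 and 170 CPM in si-SNHG17 and at 165, 143 and 160.3 CPM in si-NC. Its groups did not overlap, but the log2 fold change of 0.19 gave an edgeR adjusted p of 0.0744, and it passed without si-NC replicate 3 (adjusted p = 0.0334) and with library totals only (adjusted p = 0.0332). Per kilobase of merged exons TFE3 was at 41.6 CPM in si-SNHG17 and 36.4 CPM in si-NC, and TFEB at 1.97 and 1.72 CPM, so TFE3 was the more abundant of the pair in both groups. The related genes MITF, with 17 counts in si-SNHG17 against 20 in si-NC, and TFEC, with 1 against 0, were too rare to test. RNA levels carry no information on where these proteins are in the cell.

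Promoter sequences were searched because both factors bind E-boxes. RefSeq windows of 300 bases (GRCh38.p14) were at hand for 30 of the 42 genes. The letters CACGTG, which read the same on both strands, occurred in a window of 10 of these 30 genes (33.3%), against 1231 of 9809 tested genes with a window (12.5%). By window the shares were 22.7% of 44 and 7.26% of 35114. The longer TCACGTG, searched on both strands and overlapping the first motif by construction, was found for 9 of the 30, against 7.11% of tested genes. The related TCATGTG, searched on both strands, was found for CTSA, TPP1, PPT1, GRN, CD63 and SCARB2 (20.0%, against 2.44%). CACGTG was present in 6 of 18 genes that rose, 2 of 5 that fell and 2 of 7 that did not pass. Both CTSD and ARSB, the steepest falls, were among its carriers. Of the genes that rose by at least 0.58, CTSA, NEU1 and MCOLN1 carried it, and CTSL, CD68 and GRN did not. A match describes these letters only and is not a binding site.

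These 26-base stretches are shown because they put the motif of genes that rose beside that of genes that fell or did not pass. Each has the E-box in capitals, and positions are in GRCh38.p14. GAA, MCOLN1, CTSA, NEU1, CTSF and ATP6V0D1 rose, ARSB fell, and LAMP1 and CD63 did not pass. For GAA, MCOLN1, CTSA, CTSF and LAMP1, which held several matches, 1 is given. LAMP1 held more matches than any other gene of the 30 with a window.
GAA, plus strand of chr17:80101495-80101520: gaggccgcgtCACGTGacccaccgcg
MCOLN1, plus strand of chr19:7522600-7522625: gctaccgggtCACGTGaccgaggcac
CTSA, plus strand of chr20:45891300-45891325: cgccggagttCACGTGactcgtacac
NEU1, minus strand of chr6:31862932-31862957: gctgcgtgatCACGTGggaggagatg
CTSF, minus strand of chr11:66568714-66568739: atataacaagCACGTGatagaggtca
ATP6V0D1, minus strand of chr16:67481201-67481226: cccttatggtCACGTGaggcgcttgc
ARSB, minus strand of chr5:78986103-78986128: attcaataagCACGTGactaaaggat
LAMP1, plus strand of chr13:113297201-113297226: cccgcgggatCACGTGacgcccgggc
CD63, minus strand of chr12:55729174-55729199: gggtaggggcCACGTGgccctggccg

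The rest of the lysosomal gene complement did not share the upward tilt throughout. Of 31 other lysosomal hydrolases tested, 6 rose and 10 fell (19.4% and 32.3%, against 19.6% each way over all genes tested). Their median log2 fold change was -0.08, and the share that rose was near that over all genes. The acid nuclease gene DNASE2 fell by 0.82, while the cysteine protease gene CTSS rose by 0.60. Of 32 other membrane and accessory proteins tested, 11 rose and 4 fell (34.4% and 12.5%, against the same 19.6% each way), with a median of 0.19. LAMP3 was at 9.59, 12.2 and 13.6 CPM in si-SNHG17 and at 3.42, 2.17 and 2.72 CPM in si-NC (log2 fold change 2.10, edgeR adjusted p = 5.15e-06). GPR137B rose by 1.14, the chloride transporter gene CLCN7 by 0.76 and the cholesterol exporter gene NPC1 by 0.68. The counts over the 42 genes therefore do not stand for lysosomal genes as a whole.

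Genes of mTORC1, of the Rag and LAMTOR proteins that dock it on the lysosome and of its regulators FLCN, FNIP, RHEB and TSC formed another list. Of 16 tested, 7 rose and 2 fell (43.8% and 12.5%, against 19.6% each way over all genes tested), with a median log2 fold change of 0.24. RRAGD, a Rag GTPase, was at 24.2, 26.5 and 27.9 CPM in si-SNHG17 and at 12.5, 11.7 and 12.7 CPM in si-NC (log2 fold change 1.09, edgeR adjusted p = 1.08e-05). FLCN, folliculin, which acts on RRAGC and RRAGD, rose by 0.88, TSC1, a brake on mTORC1, by 0.83, and RRAGA by 0.48. FLCN and RRAGD are known targets of TFEB and TFE3 in other cells. Whether these factors had a part in the changes here was not tested. MTOR, the kinase, and RPTOR, its scaffold, were the genes that fell, by 0.40 and 0.63.

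Of 19 genes that sort enzymes to the lysosome, 5 rose and 5 fell (26.3% each way, near the 19.6% over all genes tested), with a median log2 fold change of 0.04. The clathrin adaptors GGA2 and GGA3 moved opposite ways. GGA2 was at 49.6 ± 1.95 CPM in si-SNHG17 and 96.2 ± 3.21 CPM in si-NC, and GGA3 at 87.8 ± 4.90 CPM in si-SNHG17 and 52.9 ± 1.23 CPM in si-NC (SD, n = 3 each). Their log2 fold changes were -0.96 and 0.73 (edgeR adjusted p = 1.28e-06 and 1.58e-05). The sorting receptor gene SORT1 fell by 0.76 and the adaptor gene AP1B1 by 0.75.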

How the data were processed

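The RNA selection, aligner, counter, annotation and strand use were not given in the sources used here. Per the labels' protocols, Trizol RNA was made into single-end Ion Total RNA-Seq Kit libraries and read on Ion Proton, and GRCh38 is named per the submitters' processing notes. The deposited table holds raw read counts, whole numbers for each gene in 1 column per library, matched to the sample titles. Titles number the libraries without naming separate cultures, so the spread behind the p-values may be only technical. No libraries held identical values.

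The counts were fitted with edgeR 4.0.16 in R 4.3.3 (filterByExpr, TMM, glmQLFit and glmQLFTest, group as the only term), adjusted by Benjamini-Hochberg over 15614 genes. Standard errors are the log2 fold change divided by the root of F, and CPM uses scaled library sizes. Simulated counts with known changes were used to check the fit. Permuting the 3 and 3 libraries exactly, two-sided, SNHG17 had p = 0.1, which no such design can go below. Exon lengths and overlaps came from GENCODE 29, with all transcripts of a gene merged, and positions and promoters from RefSeq. Intervals cover the fit only. The 42 genes, their classes and the other lists were chosen with earlier results of these data known. Library values are printed for genes past the threshold with a log2 change of at least 0.58, TFEB, TFE3 and the 2 genes with the highest mean CPM; of other lists, up to 4 genes with the smallest p, some of which are not reported here; CST3, MTOR, RPTOR, the V-ATPase sectors and the library values of CTSH and ATP6AP1 were chosen after their values were seen. Alternatives were other scalings, DESeq2 1.42.0, limma-voom (limma 3.58.1), other filters, a 2-fold rule, a replicate block and leaving out each library.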

Additional observations from a re-analysis of the deposited data

How the results depend on the processing

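Of the 42 lysosomal genes, 25 to 29 passed under the other scalings, DESeq2, limma-voom, the other filters and the replicate block, and 22 to 34 when a library was left out (17 to 27 higher, 5 to 7 lower), the most without si-NC replicate 3. A 2-fold requirement left 3 by construction, 1 higher (CD68) and 2 lower (CTSD and ARSB). The median over the 42 genes ran from 0.218 to 0.290 when a library was left out, that of the cathepsins from 0.137 to 0.222, of the glycosidases from 0.233 to 0.386, of the membrane proteins from 0.222 to 0.282 and of the V-ATPase from -0.0700 to 0.0180; the cause was not tested. Log2 fold changes that did not pass changed sign for CTSB (-0.0252 to 0.0562), IDUA (-0.171 to 0.333) and NAGLU (-0.0349 to 0.0739). No gene that passed changed sign in the 14 alternative fits. SNHG17 ran from -2.37 to -2.04. With library totals only, 24 lysosomal genes rose and 5 fell, and the median over all genes was 0.05. Deviations of same-numbered libraries correlated at 0.07, -0.13 and -0.11, so the numbers were not taken as pairs. The replicate block left 25 calls, 20 higher and 5 lower, all shared with the fit without it, and ended the calls of ASAH1, PPT1, LAMP2 and ATP6V0D1. PPT1 and ATP6V0D1 were also lost with DESeq2, and PPT1, LAMP2 and ATP6V0D1 with no low-count filter. Low counts limit ARSB, TFEB and the genes too rare to test, and low counts together with the spread between libraries limit IDUA.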

Other observations

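Of 13 cystatins and serpins listed as natural inhibitors of cathepsins, 7 had enough counts to test. Of these 4 rose, 1 fell and CSTA and SERPINB6 did not pass (edgeR; 57.1% and 14.3%, against 19.6% each way over all genes tested). CSTB, the cytosolic inhibitor of cathepsins B, H and L, was at 237 ± 13.5 CPM in si-SNHG17 and 141 ± 7.93 CPM in si-NC (SD, n = 3 each), with a log2 fold change of 0.74. CST3, the secreted cystatin C, rose by 0.39. CST1, at 3.56 ± 1.29 CPM in si-SNHG17 and 1.31 ± 0.147 CPM in si-NC, rose by 1.46, and SERPINB3, at 1.89 ± 0.146 CPM in si-SNHG17 and 0.621 ± 0.220 CPM in si-NC, rose by 1.60 (SD, n = 3 each). SERPINB3 had 17, 23 and 18 counts in si-SNHG17 but 7, 7 and 4 in si-NC. It passed the low-count filter only through si-SNHG17, where it is higher, as did CSTA. The shares above rest in part on these genes. SERPINB1 fell by 0.74, to 128 ± 4.68 CPM in si-SNHG17 against 214 ± 13.4 CPM in si-NC (SD, n = 3 each).

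Annotation overlap touches several of the 42 genes. In GENCODE 29, 19 of them share exon bases with another annotated gene, 11 with a gene on the same strand and 15 with a gene on the opposite strand. For 5 of them the overlapping row of the count table held over 10% of the gene's own counts. LIPA shares 65 exon bases with the interferon-induced gene IFIT2 on the opposite strand, which held 1112 counts in si-SNHG17 against 425 in si-NC, beside 6966 and 5190 for LIPA. SGSH shares 8 bases with SLC26A11 on the opposite strand, with 1188 counts in si-SNHG17 against 796 in si-NC, beside 1694 and 1282. MCOLN1 shares 6 bases with PNPLA6 on the same strand, with 2814 counts in si-SNHG17 against 2310 in si-NC, beside 610 and 364. The others of the 5 are PPT1 and NPC2, described above. The part of these overlaps in the values was not tested.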
